A study of Mus musculus with 6 samples.

Results

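In mouse kidney cortex, 204 of 61939 kept nuclei carried at least 2 UMIs of Vcam1 and none of Havcr1 or the other excluded genes. Of these 204 nuclei, 203 came from the 3 knockout libraries. Members were chosen on their own read-out: a nucleus needed at least 2 Vcam1 UMIs (unique molecular identifiers, 1 per captured RNA molecule) and 0 UMIs of each of Havcr1, Cd44, Top2a, Flt1, Pecam1, Pdgfrb, Ptprc, Nphs1 and Ncam1. The last 6 genes mark endothelial, mural, immune, podocyte and neural or parietal epithelial cells, and Havcr1, Cd44 and Top2a mark acutely injured, activated or dividing cells. A barcode counted as a nucleus with 300 or more genes and a mitochondrial share of UMIs of 5% or less. The libraries were single-nucleus libraries of nuclear RNA on the 10x Chromium system. The 3 control libraries were from Klf4 fl/fl mice and the 3 knockout libraries from Podocin-Cre Klf4 fl/fl mice, all on the FVB/N strain. Both groups carry the floxed Klf4 alleles, and the podocin promoter drives Cre in podocytes, so no deletion was directed at the tubule. Ages and sexes are not in the labels, and no treatment is named.

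Vcam1 encodes a cell surface protein that binds integrins of white blood cells. It is low in healthy tubule epithelium and is induced by inflammatory signals through the NF-κB transcription factors. After injury most proximal tubule cells first switch on Havcr1 (Kim-1) and lose transport genes, and then regain them. Cells that do not regain them are described as failed-repair cells: they carry Vcam1 and often Dcdc2a without Havcr1, and secrete chemokines and growth factors for stromal cells. The nuclei described here were therefore compared with proximal tubule nuclei, with Havcr1-positive nuclei and with nuclei that should lack tubule RNA.

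Total UMIs ran from 8270961 to 62016616 per library, and nuclei kept from 3845 to 22069. Control 1 and knockout 1 stood apart from the other 4 libraries, with more nuclei and a median mitochondrial share of 2.50% and 1.02% of UMIs against 0.0851 to 0.162%. Klf4 was too rare to check the knockout. Nuclei with at least 2 UMIs of the podocyte gene Nphs1 held 2 Klf4 UMIs in control 1, 6 in knockout 1 and none in the other 4 libraries. The Vcam1-positive nuclei held 9 Klf4 UMIs, all in knockout 1. Pairs of libraries shared 5 to 121 cell barcodes, and 3 of the 204 members, all in knockout 1, carried a barcode that another library also held.

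Vcam1-positive Havcr1-negative nuclei were found in every knockout library and almost nowhere in the controls. Control 1 held 1 such nucleus among 19645, control 2 held 0 among 3845 and control 3 held 0 among 5234. A count of 0 allows a share of up to 0.0780% and 0.0573% there, taken as 3 counts of the total, and the exact Clopper-Pearson 95% intervals reach 0.0959% and 0.0705%. Knockout 1 held 173 among 22069 (0.784%, exact Clopper-Pearson 95% interval 0.672 to 0.909%). Knockout 2 held 18 among 5082 (0.354%, 0.210 to 0.559%) and knockout 3 held 12 among 6064 (0.198%, 0.102 to 0.345%). The groups did not overlap, and knockout 1 alone gave 173 of the 203 knockout members. The mean share was 0.00170% ± 0.00294 for the control group and 0.445% ± 0.303 for the knockout group (SD, n = 3 libraries per group), a difference of 0.444 percentage points. A two-sided exact permutation test gave p = 0.1, the smallest that 3 against 3 can give. Without knockout 1 the difference was 0.274 percentage points (exact p = 0.1). It was 0.779 between the libraries numbered 1 and 0.276 between those numbered 2 and 3 (exact p = 0.333, the smallest that 2 against 2 can give). The intervals and limits cover counting error only, and the members were chosen with these counts known, so the share describes these libraries.

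**Figure D1:**
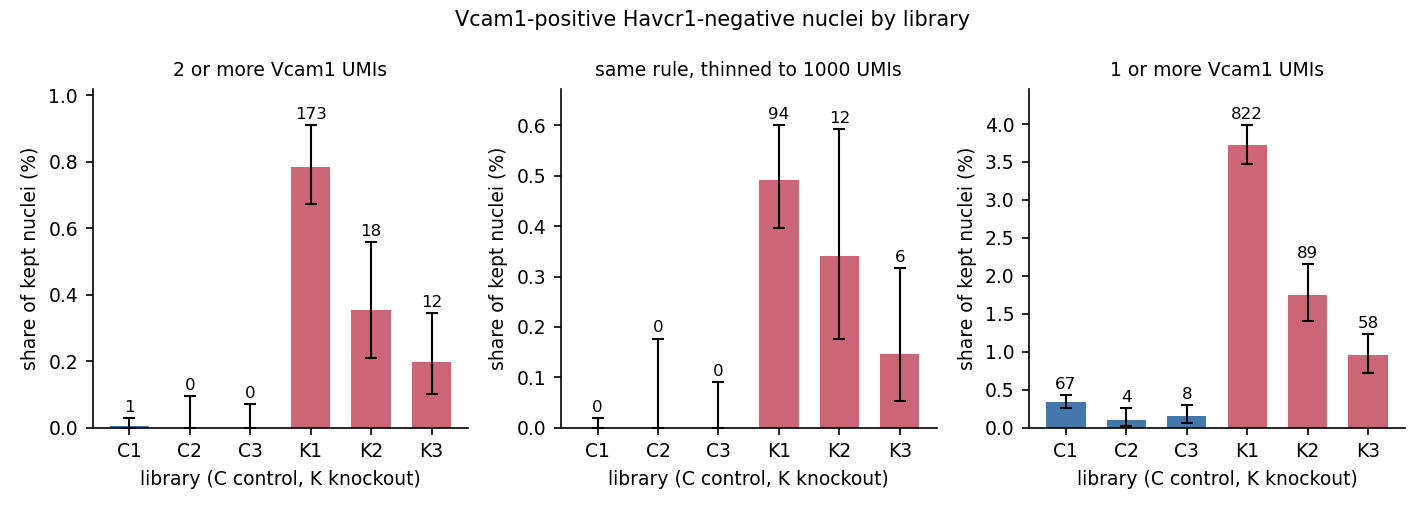
Share of kept nuclei (%) that met the rule in each library (C1 to C3 control, K1 to K3 knockout), with exact 95% binomial intervals as error bars and the number of nuclei above each bar. The left panel uses the rule as stated, the middle panel nuclei of at least 1000 UMIs thinned to 1000, and the right panel at least 1 Vcam1 UMI. In each panel the 3 knockout libraries lie above the 3 controls.

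Nuclei with at least 1000 UMIs were also thinned to 1000 UMIs, and nuclei below that depth were left out of all thinned shares. After thinning, 94, 12 and 6 nuclei of knockouts 1, 2 and 3 still met the rule, and none of the controls did. With 1 Vcam1 UMI in place of 2, the controls held 67, 4 and 8 nuclei and the knockouts 822, 89 and 58. The excluded genes removed most Vcam1-positive nuclei: knockout 1 had 669 nuclei with at least 2 Vcam1 UMIs, of which 321 carried Cd44 and 277 carried Havcr1. In knockouts 2 and 3, 61 such nuclei each were reduced to 18 and 12. Cd44 was the only reason for leaving out 102, 14 and 14 nuclei in knockouts 1, 2 and 3, and Havcr1 for 74, 9 and 3. The nuclei described here are thus the smaller share of nuclei with at least 2 Vcam1 UMIs, without a UMI of Havcr1 or Cd44.

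Members sat close to the limit of the rule. Of the 173, 18 and 12 members in knockouts 1, 2 and 3, 98, 9 and 7 had exactly 2 Vcam1 UMIs, and the highest counts were 16, 7 and 7. Their median depth was 2113, 1130 and 1658 UMIs, against 1917, 1668.5 and 2008 in Lrp2-positive proximal nuclei of the same libraries. Just below the limit, 766 knockout nuclei met the rule but for having 1 Vcam1 UMI, and 14.0% of them carried a Dcdc2a UMI. Just inside it, 24.6% of the 114 nuclei with 2 Vcam1 UMIs did, and 23.6% of the 89 with 3 or more. Among 78 control nuclei with 1 Vcam1 UMI the share was 7.69%. For Sema5a, a semaphorin of axon guidance that also marks failed-repair tubule, the 3 knockout shares were 37.6%, 50.9% and 53.9%. The pooled shares follow knockout 1, where Dcdc2a was seen in 12.3%, 26.5% and 21.3% of nuclei with 1, 2 and 3 or more Vcam1 UMIs, at median depths of 1595, 1991 and 2393 UMIs. In knockout 2 the Dcdc2a shares were 23.9%, 11.1% and 22.2%, and in knockout 3 they were 21.7%, 14.3% and 60.0%, on 5 to 9 nuclei inside the limit at each step. Sema5a was seen more often at 2 or more Vcam1 UMIs than at 1 in each knockout library. No test was made on these steps of the rule.

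The label of a failed-repair tubule cell was checked against markers that the rule did not use. All 6 remaining markers of injured or failed-repair tubule had UMIs in the members, and their summed level was 601, 907 and 919 CPM (counts scaled to the UMI total of these nuclei) in knockouts 1, 2 and 3. Lrp2-positive proximal nuclei held 249, 330 and 329 CPM of the same genes. Havcr1-positive nuclei held 525, 1030 and 791 CPM, which overlaps the members, so the sum does not set the members apart from these. Sema5a alone gave 371, 765 and 634 CPM of the sum in the members. At 1000 UMIs per nucleus it was seen in 30.6% of members, 26.4% of Havcr1-positive nuclei and 17.0% of proximal nuclei. In nuclei with at least 2 UMIs of Slc12a1, a thick ascending limb gene, that share was 26.7%. Dcdc2a was seen in 24.1% of the 203 knockout members (median depth 2034 UMIs), in 10.98% of proximal nuclei (1900 UMIs) and in 8.58% of Flt1-positive endothelial nuclei (1964 UMIs), which should lack it. At 1000 UMIs per nucleus these shares were 12.2%, 5.25% and 2.44%, so Dcdc2a in the members was above the background of free RNA. Ccl2, another gene of the label, was too low to be tested.

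Markers of other cells had UMIs in the members too. The 6 thick ascending limb genes summed to 2200, 1644 and 2948 CPM in the members of knockouts 1, 2 and 3, above the failed-repair list, and to 2237, 1963 and 2868 CPM in proximal nuclei. The 4 distal convoluted tubule genes summed to 884, 198 and 127 CPM in the members and to 699, 331 and 477 CPM in proximal nuclei. The parietal epithelial list, whose 5 usable genes all had UMIs, summed to 300 to 697 CPM in the members, 246 to 607 CPM in Havcr1-positive nuclei and 52.4 to 82.2 CPM in proximal nuclei. Cp, the copper carrier ceruloplasmin, gave 238 to 571 CPM of that sum in the members. Cldn1, a tight-junction gene of parietal cells, had a UMI in 7.39% of members, 7.35% of Havcr1-positive nuclei and 0.974% of proximal nuclei. Among immune markers Adgre1, C1qa, Cd3e and Ms4a1 were at 0 in the members, and the other 3 usable genes had UMIs. The summed immune list was 56.7 to 148 CPM in the members and 48.0 to 80.3 CPM in proximal nuclei. Of 6 usable endothelial genes 5 had UMIs and Egfl7 was at 0, and the sum was 0 to 127 CPM (mean 66.2) against 34.6 to 63.7 CPM (mean 50.5). Of 9 usable stromal and mural genes 7 had UMIs and Myh11 and Ren1 were at 0, and the sum was 31.7 to 56.7 CPM against 17.2 to 27.3 CPM. The part of these cells in the results below was not tested.

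Which genes set the Vcam1-positive nuclei apart from all other nuclei of the knockout libraries is a description, since the nuclei were picked from the same counts. Among 4272 genes seen in at least 10% of members, Cxcl2 led with 20.4 times the mean CPM of the rest. C3 (14.1 times), Cxcl10 (9.99), Dock10 (9.26), Gbp5 (8.78), Sox9 (8.32), Irf1 (7.81), Birc3 (7.61), Cxcl16 (7.59) and Plat (5.91) followed. Ripk2, Relb, Pdgfb, Icam1 and Prr5l completed the first 15, at 5.36 to 4.95 times. Cxcl2, Cxcl10 and Cxcl16 encode chemokines, C3 a complement component, Relb a subunit of NF-κB and Pdgfb a growth factor for stromal cells, while Plat encodes tissue plasminogen activator. Dock10 was the most widely seen of the 15, with a UMI in 72.5% of members, and Sox9 the least, in 10.3%.

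Against Lrp2-positive proximal nuclei of the same knockout libraries, Vcam1-positive nuclei had higher chemokine, complement and NF-κB genes and lower transport genes. The comparison used UMIs summed per library over 173, 18 and 12 members and over 7237, 2194 and 2579 proximal nuclei, which carry at least 2 Lrp2 UMIs and none of the genes of the rule. Of 11251 genes tested with edgeR's quasi-likelihood test and Benjamini-Hochberg adjustment, 204 were higher in the members (1.81%) and 115 lower (1.02%), or 2.84% in all. DESeq2 called 95 higher and 10 lower, and the fit without the library as a block 99 and 11. Without knockout 1 the counts were 30 and 71, without knockout 2 they were 131 and 5, and without knockout 3 they were 146 and 11. Library-size scaling in place of TMM called 293 higher and 116 lower, and TMMwsp 168 and 76. Both counts depended on the fit: the higher genes fell most without knockout 1, and the lower genes most without knockout 2. The median log2 difference over all genes was -0.12 with TMM. Sox9, Cxcl2, Cxcl10, Gbp5 and Csf1, at few CPM in proximal nuclei, passed edgeR's low-count filter only through the members, where they were high. Their entry into the test was thus not independent of that level. Without the filter 24301 genes were tested, of which 198 were higher in the members and 111 lower.

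Of the 16 genes of NF-κB signalling, chemokines and complement, 15 were tested and 12 were higher in the members, none lower. Their median log2 difference was 2.46, against -0.12 over all genes. Among subunits of NF-κB, Nfkb1 was at 359, 425 and 951 CPM in the members of knockouts 1, 2 and 3, and at 93.9, 104 and 94.6 CPM in proximal nuclei. Every member library lay above every proximal library. The log2 difference was 2.15 (SE 0.26, edgeR adjusted p = 1.2e-13). Relb was at 107, 0 and 254 CPM against 12.3, 12.4 and 9.01 CPM (log2 3.09, SE 0.33, edgeR adjusted p = 2.3e-17), so it was high in 2 of the 3 libraries and not seen in knockout 2. Nfkb2 rested on 10 UMIs (log2 2.75, edgeR adjusted p = 0.00061). Among genes that act in the pathway, Birc3, a ubiquitin ligase downstream of TNF receptors, was at 330, 369 and 539 CPM against 35.6, 32.1 and 19.1 CPM. It was more than 9 times higher in each library (log2 3.46, SE 0.30, edgeR adjusted p = 3.1e-27). Tnfaip3, an inhibitor of the pathway, rested on 11 UMIs (log2 2.51, edgeR adjusted p = 0.0013). Nfkbia, the inhibitor that holds NF-κB in the cytoplasm, was at 45.2, 0 and 63.4 CPM against 16.3, 26.9 and 13.0 CPM and did not pass (log2 1.25, edgeR adjusted p = 0.10).

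Secreted members of the list were low in number of UMIs but far above proximal nuclei. C3, the central complement component, was at 131, 227 and 317 CPM in the members and at 8.11, 10.6 and 9.32 CPM in proximal nuclei (log2 4.10, SE 0.31, edgeR adjusted p = 6.1e-36). Cxcl1, which attracts neutrophils, was at 172, 312 and 159 CPM against 53.4, 79.6 and 28.8 CPM (log2 1.69, SE 0.31, edgeR adjusted p = 1.2e-05). Both were higher in the members of every knockout library. Cxcl2, a second neutrophil chemokine outside the list, was at 67.7, 113 and 190 CPM against 2.19, 1.04 and 1.26 CPM, on 43 UMIs in the members (log2 5.31, SE 0.40, edgeR adjusted p = 2.0e-36). Cxcl10, which attracts T cells, was at 123, 28.3 and 31.7 CPM against 5.29, 1.87 and 4.58 CPM (log2 4.36, SE 0.34, edgeR adjusted p = 1.4e-33). In knockouts 2 and 3 that level was 1 UMI each, so the Cxcl10 value is one of knockout 1. Cxcl16 (log2 2.46) and Icam1 (log2 2.42), a transmembrane chemokine and an adhesion molecule, were higher in all 3 libraries at edgeR adjusted p = 9.9e-10 and 4.3e-13. Without knockout 1, 5 of the 14 tested genes of the list were called, and Relb (edgeR adjusted p = 0.31) and Cxcl10 (0.92) were not. The median log2 difference of the list was 2.68 there.

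**Figure D2:**
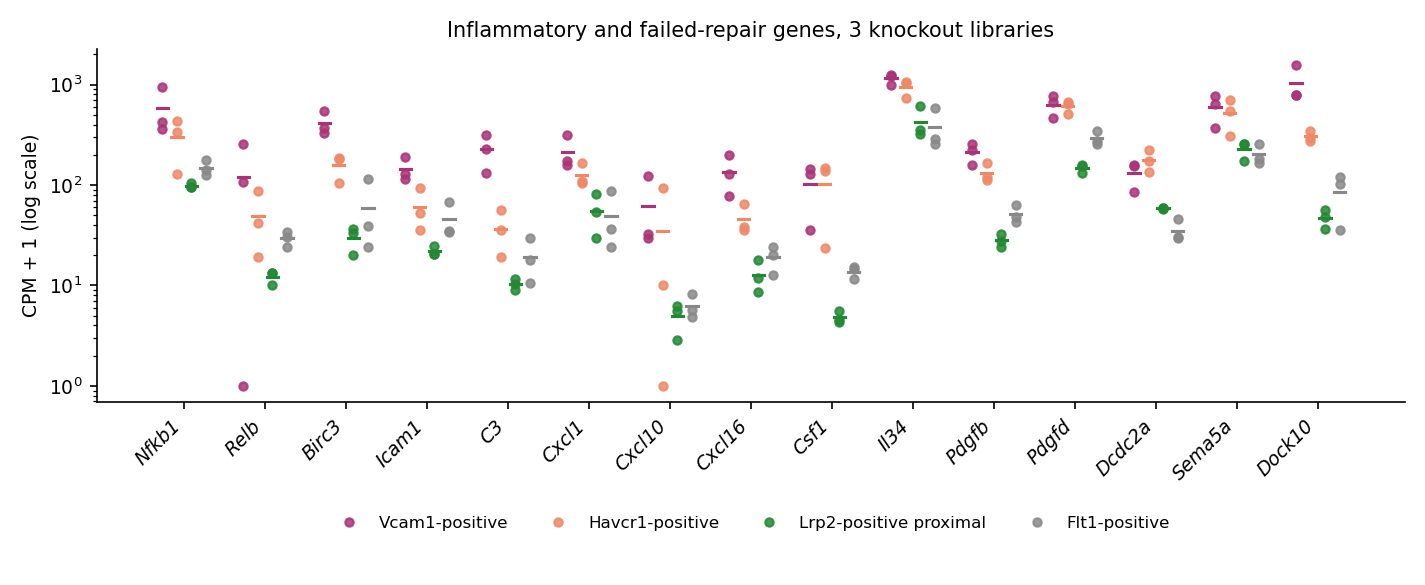
CPM + 1 (log axis) of 15 genes in Vcam1-positive, Havcr1-positive, Lrp2-positive proximal and Flt1-positive nuclei; each point is a knockout library and each short line the mean of 3. Birc3, C3 and Dock10 lie highest in the Vcam1-positive nuclei, for Il34, Pdgfd and Sema5a the Vcam1-positive and Havcr1-positive libraries overlap, and Relb in knockout 2 is at 0 CPM.

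Macrophage and stromal growth factors were higher in the members as well. Csf1 and Il34 encode the ligands of the macrophage receptor Csf1r. Il34 was at 989, 1219 and 1236 CPM in the members and at 319, 354 and 605 CPM in proximal nuclei (log2 1.25, SE 0.22, edgeR adjusted p = 1.4e-06). Csf1 was at 34.9, 142 and 127 CPM against 3.57, 4.56 and 3.32 CPM, on 26 UMIs (log2 3.69, SE 0.45, edgeR adjusted p = 3.1e-13). Csf1 passed the low-count filter only through the members, so its test was not independent of its level there. For both ligands the libraries of the 2 kinds of nuclei did not overlap. Pdgfb and Pdgfd encode ligands of the receptor Pdgfrb on stromal cells. Pdgfb was at 158, 255 and 222 CPM against 31.9, 23.2 and 26.9 CPM (log2 2.48, SE 0.31, edgeR adjusted p = 7.5e-13). Pdgfd was at 460, 765 and 666 CPM against 156.1, 132 and 151.8 CPM (log2 1.75, SE 0.25, edgeR adjusted p = 5.3e-10). Both Pdgf ligands kept their calls without any 1 of the knockout libraries.

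Of the 11 failed-repair genes, 10 were tested and 7 were higher in the members: Dcdc2a, Sema5a, Il34, Nfkb1, Relb, Pdgfb and Pdgfd. Their list median was 1.20 on the log2 scale. Il34, Nfkb1 and Relb are also in the list of NF-κB, chemokine and complement genes, so the 2 counts overlap. Dcdc2a, a doublecortin-domain protein that binds microtubules, was at 151.9, 85.1 and 159 CPM against 58.0, 58.0 and 56.7 CPM. It was higher in each library, by a log2 difference of 1.15 (SE 0.33, edgeR adjusted p = 0.023). That call was lost in 9 of 11 alternatives, among them the fits without knockout 1 (edgeR adjusted p = 0.92), without knockout 2 (0.094) and without knockout 3 (0.074). Sema5a was at 371, 765 and 634 CPM against 173, 256 and 258 CPM (log2 1.06, SE 0.24, edgeR adjusted p = 0.00096). The 3 members of the list that did not pass were Prom1 (log2 0.38), Tpm1 (0.39) and Dlgap1 (-0.05). The list was drawn up with results of these data known, so its count is not independent evidence of its direction.

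Among 20 genes of acute tubule injury 12 could be tested and 4 were higher, although the rule had left out nuclei with Havcr1 and Cd44. Without the low-count filter all 20 were tested and 4 were called, with a median log2 difference of 1.04 against 1.42 for the 12. Sox9, a transcription factor of regenerating tubule, was at 41.0, 56.7 and 31.7 CPM in the members and at 2.47, 2.49 and 0.474 CPM in proximal nuclei, on 23 UMIs (log2 4.08, SE 0.46, edgeR adjusted p = 4.4e-16). Anxa2 (log2 2.97), the stress gene Atf3 (2.91) and Klf6 (1.81) also passed, with edgeR adjusted p of 7.5e-13, 1.5e-06 and 4.3e-06. All 4 calls were lost without knockout 1, where the edgeR adjusted p was 0.69 for Sox9, 0.38 for Anxa2, 0.43 for Atf3 and 0.37 for Klf6. Spp1, the secreted protein osteopontin, was at 209, 198 and 31.7 CPM against 124, 36.9 and 31.1 CPM and did not pass (log2 0.89, edgeR adjusted p = 0.19). Of 16 matrix and fibrosis genes, 10 were tested and 3 were higher. Itgav and Itgb6, subunits of an integrin that activates TGF-β, had log2 differences of 1.49 and 1.10 (edgeR adjusted p = 8.0e-09 and 8.4e-05). Col4a1, a basement membrane collagen, had 0.95 (edgeR adjusted p = 0.015). Itgb6 lost its call without knockout 3 (edgeR adjusted p = 0.11), and Col4a1 without knockout 2 (0.48) and without knockout 3 (0.42). Col1a1 and Col3a1, the collagens of scar-forming fibroblasts, were too low to be tested.

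The 3 chemokine genes that rose and lie on mouse chromosome 5 are shown with the stretch of promoter that holds letters of an NF-κB site, since subunits of this factor rose in the same nuclei. The NF-κB consensus was searched on both strands in the 250 bases before the RefSeq start of each gene (build GRCm38.p6, which is mm10). Capitals mark each match, and overlapping matches are drawn as 1 run. The stretches run from 160 to 31 bases before the start, 5′ to 3′ on the strand of the gene: chr5:90891085-90891214 (+) for Cxcl1, chr5:90903739-90903868 (+) for Cxcl2 and chr5:92348920-92349049 (-) for Cxcl10.
Cxcl1: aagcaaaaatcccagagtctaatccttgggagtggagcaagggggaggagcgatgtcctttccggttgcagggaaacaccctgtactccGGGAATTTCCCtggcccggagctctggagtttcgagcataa
Cxcl2: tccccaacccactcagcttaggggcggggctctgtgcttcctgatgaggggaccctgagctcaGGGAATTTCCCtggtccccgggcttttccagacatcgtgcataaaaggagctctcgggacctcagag
Cxcl10: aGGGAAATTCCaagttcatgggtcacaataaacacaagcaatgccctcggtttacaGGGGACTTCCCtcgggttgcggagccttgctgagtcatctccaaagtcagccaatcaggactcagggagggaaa
Cxcl1 and Cxcl2 had 2 matches each, which overlap on opposite strands in a single run of capitals. Cxcl10 had 4, of which 3 overlap. Of the 204 genes higher in the members, 148 had a window in RefSeq's list and 29 of those held the consensus (19.6%). Of the 115 lower genes 88 had a window and 5 held it (5.68%), and of all 8617 tested genes with a window 880 did (10.2%). Of all 32851 windows that RefSeq gave, 2382 held it (7.25%). Among the NF-κB list genes that were higher, 8 had a window and 5 held the consensus: Nfkb2, Tnfaip3, Cxcl1, Cxcl10 and Csf1. The form of the consensus was chosen after the result of a search with narrower letters was known, in which 17 of the 148 higher genes (11.5%), 6 of the 88 lower genes (6.82%) and 506 of the 8617 tested genes (5.87%) had a match. A match is a run of letters, and binding was not measured.

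Of the proximal transport genes, 13 were lower in Vcam1-positive nuclei than in proximal nuclei. Slc34a1, Cubn and Slc27a2 also had UMIs in nuclei that should lack them, and the values there are set beside the members. Of the 35 genes, 34 were tested (Lrp2 picked the proximal nuclei and was left out), none was higher, and the median log2 difference was -0.71. The proximal nuclei had to carry at least 2 UMIs of Lrp2, itself a transport gene, and the members did not. Genes that go with Lrp2 can therefore be higher in proximal nuclei by that choice, and its part in the 13 calls was not tested. Slc34a1, the sodium-phosphate cotransporter of the brush border, was at 2895, 3062 and 2536 CPM in the members and at 4437, 3906 and 3362 CPM in proximal nuclei. The members were lower in each library and the libraries did not overlap (log2 -0.73, SE 0.19, edgeR adjusted p = 0.0072). Slc5a12, a lactate cotransporter of the early proximal tubule, was at 421, 425 and 127 CPM against 816, 695 and 177 CPM (log2 -1.01, SE 0.26, edgeR adjusted p = 0.0066). Slc7a13, an amino acid transporter of the late proximal tubule, was at 230, 56.7 and 159 CPM against 484, 362 and 532 CPM (log2 -1.54, SE 0.28, edgeR adjusted p = 5.1e-06). The calls of Slc34a1 and of Slc5a12 were each lost in 6 of 11 alternatives, among them the fits without each knockout library. Slc5a2, the glucose cotransporter of the early segment, was at 113, 312 and 412 CPM against 166, 168 and 192 CPM and did not pass (log2 -0.0075, edgeR adjusted p = 1.00). Slc27a2 (log2 -1.13), Slc22a30 (-1.16), Slc17a3 (-1.003), Slc6a20b (-1.11) and Slc13a3 (-1.05), which handle fatty acids, organic anions, phosphate and urate, imino acids and dicarboxylates, also passed. Cubn, the partner of megalin in protein uptake, did not (log2 -0.54, edgeR adjusted p = 0.34). The count of 13 fell to 8 without knockout 1, 1 without knockout 2, 1 without knockout 3, 2 without the library as a block and 3 with DESeq2. Library-size scaling called 13 lower and 1 higher.

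Nuclei with at least 2 UMIs of Flt1, an endothelial gene, should hold no proximal transport RNA of their own. Slc34a1 had a UMI in 81.0% of them, 69.9% of nuclei with at least 2 UMIs of Slc12a1 (the thick ascending limb cotransporter), 88.2% of members and 94.4% of proximal nuclei. At 1000 UMIs per nucleus the shares were 85.9%, 78.5%, 83.9% and 91.6%, so the members did not exceed the endothelial background at that depth. Thinning left out nuclei under 1000 UMIs, which were 121 of 653 Flt1-positive and 1288 of 4288 Slc12a1-positive nuclei. It also left out 23 of 203 members and 881 of 12010 proximal nuclei. The part of this unequal loss in the shares was not tested. Cubn gave 34.4% in Flt1-positive nuclei and 36.1% in members at that depth, and Slc27a2 60.0% and 48.9%. For these 3 genes the remaining signal in the Vcam1-positive nuclei was at or near background, and a cell's own transport RNA could not be told from free RNA at this depth.

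A comparison with Flt1-positive nuclei of the same libraries (405, 89 and 159 nuclei), added after the data were seen, put values on this. Of 5951 genes, 145 were higher in the members (2.44%) and 190 lower (3.19%), or 5.63% in all, by edgeR's quasi-likelihood test. Of 33 transport genes 29 did not pass, 2 were higher and 2 lower, with a median log2 difference of -0.29 against -0.04 over all genes. Slc34a1 was at 2895, 3062 and 2536 CPM in the members and at 3693, 3417 and 2890 CPM in Flt1-positive nuclei (log2 -0.30, SE 0.14, edgeR adjusted p = 0.33). Slc13a1, a sulfate cotransporter, was at 1962, 2466 and 1934 CPM against 1283, 1357 and 1001 CPM (log2 0.73, SE 0.15, edgeR adjusted p = 0.00054). Slc4a4, the basolateral bicarbonate cotransporter, was at 1995, 4111 and 2219 CPM against 1655, 1875 and 1705 CPM (log2 0.52, SE 0.15, edgeR adjusted p = 0.025). These 2 were above the endothelial level in every library. Slc5a12 (log2 -0.94, edgeR adjusted p = 0.0014) and Slc7a13 (-0.83, 0.024) were below it. Slc13a1 kept its call without each knockout library in turn. Slc4a4 lost it without knockout 2 (edgeR adjusted p = 0.88), Slc5a12 without knockout 1 (0.40), and Slc7a13 without knockouts 1 (0.12), 2 (0.063) and 3 (0.066). None of the 4 passed with DESeq2 or without the library as a block.

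**Figure D3:**
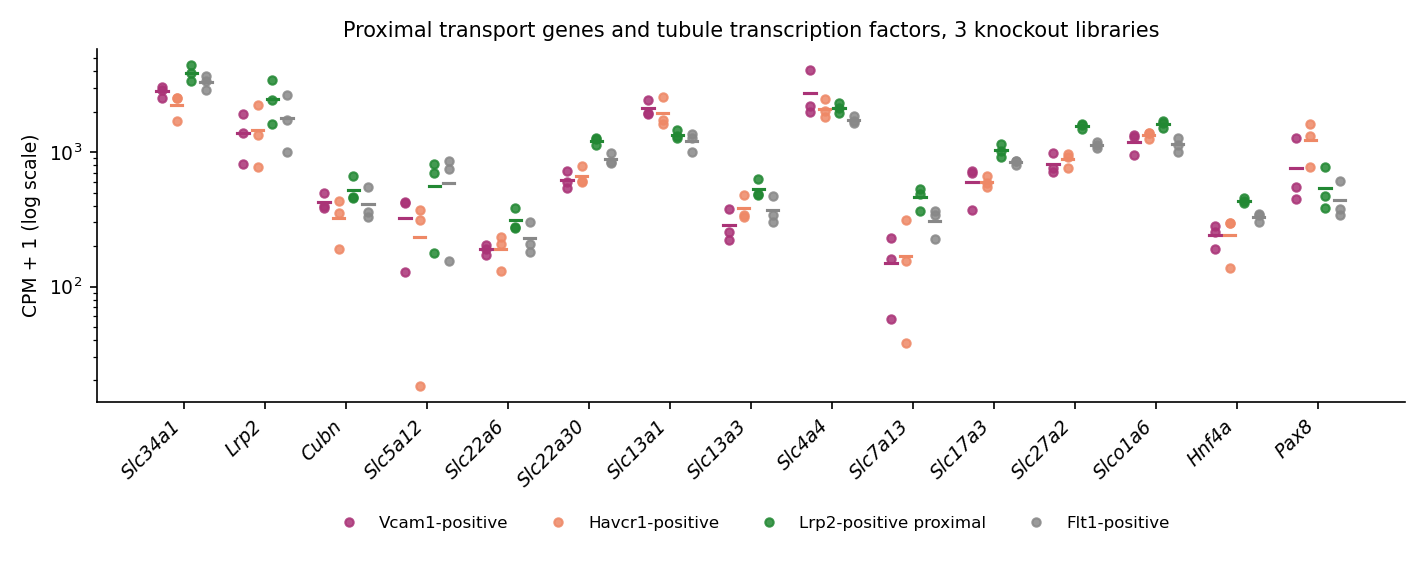
CPM + 1 (log axis) of 13 proximal transport genes and 2 tubule transcription factors in 4 kinds of nuclei; each point is a knockout library and each short line the mean of 3, and Lrp2 picked the proximal nuclei. Slc34a1, Slc27a2 and Slc22a30 are highest in proximal nuclei, while Slc13a1 in Vcam1-positive nuclei lies above Flt1-positive nuclei in all 3 libraries.

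The inflammatory and failed-repair genes stood above the endothelial level too. In the comparison with Flt1-positive nuclei 9 of 10 tested NF-κB, chemokine and complement genes and 7 of 10 failed-repair genes were higher, none lower. Relb, Birc3, C3, Cxcl1, Cxcl16 and Csf1 passed the low-count filter only with the counts of the members. Their entry into the test was thus not independent of the level in the members. Without the filter 10 of 16 and 7 of 11 genes of these lists were called higher, none lower. Nfkb1, Relb and Il34 are counted in both lists. Dcdc2a was at 151.9, 85.1 and 159 CPM in the members and at 44.4, 28.5 and 29.1 CPM in Flt1-positive nuclei (log2 1.85, SE 0.35, edgeR adjusted p = 0.00015), and kept its call in all 10 alternatives. Il34 (log2 1.64), Nfkb1 (1.73), Pdgfb (1.96) and Sema5a (1.32) did so as well.

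**Figure D4:**
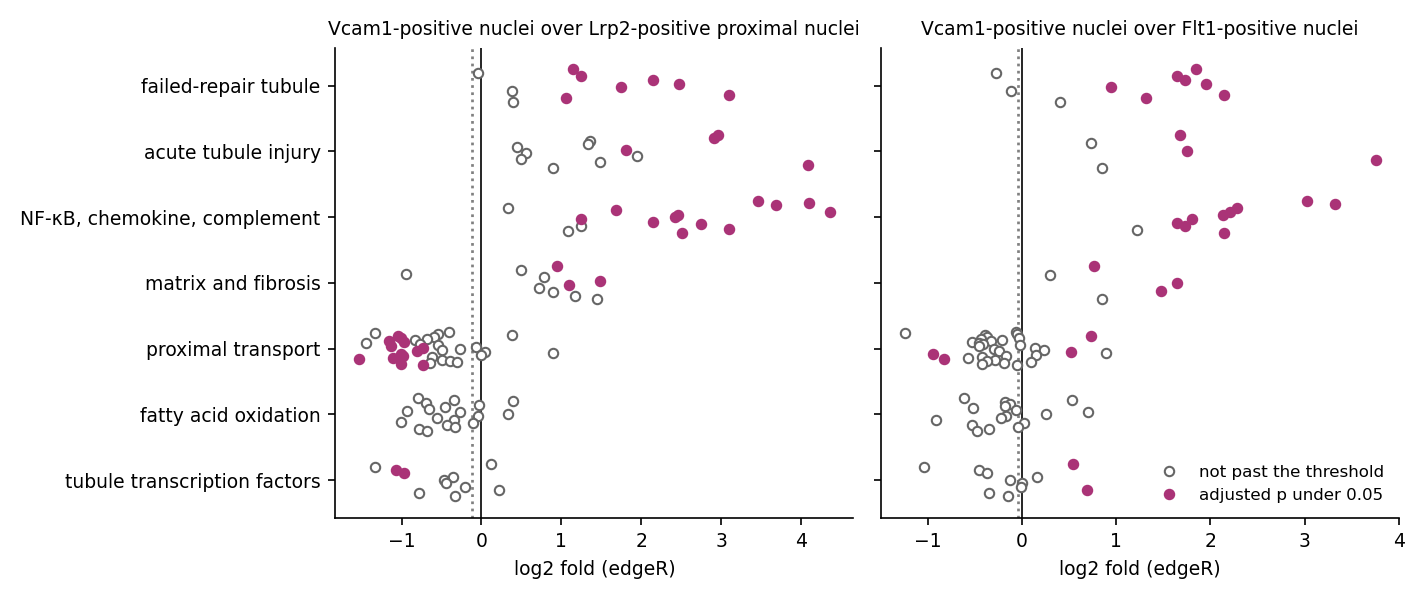
Log2 difference (edgeR fit) of each tested gene of 7 lists, Vcam1-positive nuclei over Lrp2-positive proximal nuclei (left) and over Flt1-positive nuclei (right); filled points passed an adjusted p of 0.05 and the dotted line is the median of all genes tested. Transport genes lie left of 0 in the left panel (31 of 34) and nearer to it in the right one, and the NF-κB, chemokine and complement genes lie right of 0 in both.

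Among transcription factors that keep the tubule identity, none of 11 tested was higher than in proximal nuclei, and Hnf4a was among those lower. Hnf4a, which drives proximal transport genes, was at 281, 255 and 190 CPM in the members and at 455, 431 and 415 CPM in proximal nuclei (log2 -0.97, SE 0.26, edgeR adjusted p = 0.013). It was lower in all 3 libraries, and the choice of proximal nuclei by Lrp2 bears on this comparison too. Hnf4a lost its call without knockout 1 (edgeR adjusted p = 0.064), knockout 2 (0.41) or knockout 3 (0.36). Against Flt1-positive nuclei Hnf4a did not pass (log2 -0.38, edgeR adjusted p = 0.56), while Pax8 (log2 0.69, 0.014) and Esrrg (0.55, 0.0047), factors of the renal epithelium, were higher. Pax8 lost its call without knockout 1 (edgeR adjusted p = 0.15) or knockout 2 (0.28), and Esrrg without knockout 2 (0.59) or knockout 3 (0.083). Both also lost it with DESeq2, without the low-count filter and without the library as a block. None of the 19 fatty acid oxidation genes passed against proximal nuclei. Their median log2 difference was -0.43, and the smallest p belonged to Ppara, the regulator of the pathway (log2 -0.78, edgeR adjusted p = 0.056). Of 15 cell cycle genes 6 could be tested and none passed, in nuclei chosen for 0 UMIs of Top2a, a gene of dividing cells.

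Outside the lists, Dock10 had the smallest p of all genes. It was at 792, 794 and 1553 CPM in the members and at 55.2, 46.8 and 35.1 CPM in proximal nuclei (log2 4.16, SE 0.25, edgeR adjusted p = 3.8e-57). Gbp5, an interferon-induced GTPase (log2 4.99), Kcnip4, a potassium channel subunit (2.97), Sytl2, a Rab27 effector in secretion (3.01), Plat, tissue plasminogen activator (3.65), and the transcription factor Creb5 (3.00) completed the genes with the smallest p. Dock10, Kcnip4, Sytl2 and Plat kept their calls in all 11 alternatives. Gbp5 and Creb5 lost theirs without knockout 1 (edgeR adjusted p = 0.92 for each). Among lower genes Rnf24, a RING-finger gene, was at 398, 0 and 222 CPM against 789, 835 and 1078 CPM (log2 -1.89, SE 0.25, edgeR adjusted p = 3.2e-11). Cyp7b1, an oxysterol hydroxylase (log2 -1.82), Gramd1b, a sterol transfer protein (-1.41), the sodium-calcium exchanger Slc8a1 (-1.64), Ghr, the growth hormone receptor (-1.18), Bcat1, which degrades branched-chain amino acids (-2.05), and Cyp4b1 (-1.25) followed. The calls of Gramd1b (edgeR adjusted p = 0.33), Ghr (0.41) and Cyp4b1 (0.10) were lost without knockout 2, and those of Ghr (0.31) and Cyp4b1 (0.066) without knockout 3.

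Havcr1-positive Vcam1-negative nuclei, picked by the same rule with the 2 genes exchanged, were the most like comparison and few genes separated them from the members. They numbered 204 in the 3 knockout libraries, with 30 in knockout 2, 18 in knockout 3 and the rest in knockout 1. Of 1214 genes with enough UMIs, 3 were higher in the Vcam1-positive nuclei (0.247%) and none lower by edgeR's quasi-likelihood test, and 77 had an unadjusted p under 0.05. The fit without the library as a block called 0 and DESeq2 called 1. Dock10 was at 792, 794 and 1553 CPM in the members and at 347, 294 and 275 CPM in Havcr1-positive nuclei (log2 1.48, SE 0.21, edgeR adjusted p = 0.00036). St3gal3, a sialyltransferase, was at 784, 510.3 and 1427 CPM against 349, 441 and 413 CPM (log2 1.14, SE 0.21, edgeR adjusted p = 0.0076). Erbb4, a neuregulin receptor, was at 540, 709 and 1427 CPM against 338, 73.6 and 498 CPM (log2 1.14, SE 0.25, edgeR adjusted p = 0.040). All 3 genes were higher in the members of each library. St3gal3 lost its call without knockout 1 (edgeR adjusted p = 0.15). The number called was 9 of 1049 genes tested without knockout 1, 13 of 4871 without knockout 2 and 7 of 4794 without knockout 3.

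Transport genes and the 3 inflammatory genes that could be tested were not shown to differ between the Vcam1-positive and the Havcr1-positive nuclei. This does not show that they were alike. Of 22 transport genes tested none passed, with 10 higher and 12 lower and a median of -0.02. Slc34a1 differed by 0.30 on the log2 scale (95% interval -0.02 to 0.62, edgeR adjusted p = 0.78), Lrp2 by -0.02 (-0.35 to 0.30) and Cubn by 0.27 (-0.18 to 0.73). Birc3 was at 330, 369 and 539 CPM against 182, 184 and 103 CPM (log2 1.07, SE 0.25, edgeR adjusted p = 0.071). Nfkb1 (log2 0.52, 95% interval 0.02 to 1.02) did not pass after adjustment either (edgeR adjusted p = 0.73). Of the 16 NF-κB, chemokine and complement genes only 3 had enough UMIs for this test (Birc3, Nfkb1 and Il34), and C3 and Cxcl10 were among those too low. All 3 were higher in the members. Without knockout 1, 4 genes were tested, all higher and none called. Without knockout 2, 10 were tested, all higher and 2 called. Without knockout 3, 11 of 12 were higher and 1 was called. Without the low-count filter 13 of 16 were higher and 1 was called. C3 had a UMI in 26.1% of members and 5.88% of Havcr1-positive nuclei, and Cxcl10 in 14.8% and 2.45%, at median depths of 2034 and 2082.5 UMIs. At 1000 UMIs per nucleus C3 was seen in 16.7% and 3.11%, and Cxcl10 in 10.0% and 1.55%. These shares are pooled and 173 of the 203 members are from knockout 1. C3 was seen more often in the members of each library. Cxcl10 was seen in 28 of 173 members of knockout 1, but in knockout 2 in 1 of 18 members (5.56%) and 2 of 30 Havcr1-positive nuclei (6.67%). Dcdc2a ran the other way, at 24.1% and 27.0%.

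The members were not uniform. Leiden clustering without the genes of the rule gave 5 clusters of 53, 48, 47, 29 and 27 nuclei, all left unnamed, and their leading genes are a description. The largest, with a median of 3304 UMIs, was led by Enox1, Mecom, Abca13 and Slit2, and Slc12a3 and Egf, genes of the distal convoluted tubule and thick ascending limb, were among its first 10. Of its 53 nuclei 27 had doublet scores among the highest of their library, against 1 of 47 in the third cluster. The third cluster was led by Gbp3, Fga and Cxcl10, with Cxcl10 at 383 CPM against 55.9 CPM in the other members. The fifth had Kcnq5 and Cdh6, a cadherin of injured tubule, in the lead, and held Dcdc2a at 349 CPM against 129 CPM and Sema5a at 901 CPM against 359 CPM. C3 there was at 55.2 CPM against 157 CPM. The other 2 clusters were led by genes with few UMIs. Of all 204 members 163 had a UMI of Lrp2 or Cubn, and 34 had at least 2 of Slc12a1. Among knockout members Lrp2 was seen in 65.5% and Cubn in 59.1%, against 71.4% and 53.9% of Flt1-positive nuclei. After thinning to equal depth Lrp2 was seen in 47.8% of members and 64.1% of Flt1-positive nuclei, and Cubn in 36.1% and 34.4%. The count of 163 thus does not set the members apart from background. With the nuclei of the highest doublet scores left out, 155 of the 203 knockout members remained, and 356 genes differed from proximal nuclei by edgeR, of which 200 were higher. That step removed 26.0%, 11.1% and 8.33% of the members of knockouts 1, 2 and 3. Of all kept nuclei in these libraries it removed 17.4%, 3.68% and 4.83%, so members were removed more often in each.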

How the data were processed

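The deposited files are matrices of whole UMI counts, not normalized, and per the file headers the authors made them with Cell Ranger 3.1.0. The build mm10 and the tool Seurat are named in the submitters' processing notes without their role. The sources used here do not give the annotation release, the cell calling or any correction for free RNA. Library groups and numbers come from the sample titles. The labels do not say that numbers pair mice. Deviations from the group means over 3903 genes correlated at 0.63, 0.28 and 0.30 within numbers 1, 2 and 3. They correlated at 0.42 between control 3 and knockout 2, and at 0.21 between control 2 and knockout 3. Pairing by number was therefore not shown, and the paired share test is given only among the alternatives.

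Members and comparison nuclei were picked by UMIs as stated in the results. UMIs were summed per library and kind of nucleus, where a library held at least 10 nuclei of both, which left the 3 knockout libraries. The control libraries held 1 member in all, so no test of knockout against control within members could be run. The quasi-likelihood test of edgeR 4.0.16 (R 4.3.3) was run on the sums with TMM factors, edgeR's filter on low counts and the library as a block, with Benjamini-Hochberg adjustment at 0.05 over all genes tested and the genes of the rules left out. Each fit had 2 residual degrees of freedom per gene and shared the spread across genes, so very small p-values rest on that shared estimate. The labels do not name mice, so p-values may measure spread that is partly technical. CPM is the count scaled to the UMI total of the summed nuclei. Levels are not per length and are compared within a gene only.

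Shares were compared by an exact permutation test over libraries. Scrublet (scanpy 1.11.5) called 0 to 6 doublets per library, which was taken as not having worked, so barcodes with the highest scores were left out (0.8% per 1000 barcodes) only as an alternative. Clusters came from 1500 variable genes, 15 components, 12 neighbours and a resolution of 1 (leidenalg 0.10.2). Promoter windows and positions came from RefSeq and GENCODE on GRCm38, and the NF-κB consensus was searched with ambiguity codes. Scripts for the gene tests were tested on simulated data. DESeq2 1.42.0 was an alternative.

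By the naming rule, each comparison names at most 10 higher and 10 lower genes, taken by smallest p from genes that are not clones, mitochondrial or ribosomal, up to 4 per gene list (8 for transport) or the 2 with the smallest p if none passed, and Dcdc2a, Slc34a1, Lrp2, Cubn, Hnf4a and Klf4. Other list genes are named to account for a list and were chosen after their values were seen, as were Cldn1 and Cp. The members, gene lists and tests were chosen with earlier results of these data known. Some results are not reported here.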

Additional observations from a re-analysis of the deposited data

How the results depend on the processing

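The share difference of 0.444 percentage points kept its direction in all 17 alternatives, and no test could reach 0.05. It ranged from 0.200 (at least 3 Vcam1 UMIs) to 1.94 (at least 1), and was 1.71 with no excluded genes, 0.549 at most 1% mitochondrial UMIs and 0.325 after thinning. Leaving out each library in turn gave 0.274 to 0.567. With the replicate block (exact sign-flip test of the 3 numbered differences) the difference was 0.444 with p = 0.25, the smallest it allows.

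Against proximal nuclei 319 genes were called. DESeq2 called 105, the fit with no replicate block 110, and at most 1% mitochondrial UMIs 212. Leaving out each knockout library gave 101 to 157, with 89, 121 and 145 genes shared with the 319 without knockouts 1, 2 and 3. Against Havcr1-positive nuclei 3 were called, 1 with DESeq2, 6 without the low-count filter, 0 with no replicate block (32 at an unadjusted p under 0.05), 9 with library-size scaling, 1 at most 1% mitochondrial UMIs, 13 without the highest doublet scores and 7 to 13 without each library. Against Flt1-positive nuclei 335 were called, 127 with DESeq2, 203 with no replicate block and 183 to 342 without each library. The causes were not tested.

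Of 39 named genes called against proximal nuclei, 13 kept the call in every alternative run. Signs of uncalled log2 differences turned for 5 results. Mki67 against proximal nuclei ran from -7.93 (without knockout 1) to 0.88 when a library was left out. Against Havcr1-positive nuclei the range was -1.04 to 0.00056 for Ppargc1a, -0.104 to 0.0372 for Lrp2 and -0.116 to 0.0475 for Hnf4a. Lrp2 was 0.0471 without the highest doublet scores, and Hnf4a 0.0123 with no replicate block. Against Flt1-positive nuclei Cubn was 0.0037 with DESeq2, 0.069 with no replicate block and -0.0951 to 0.131 without each library. The test of knockout against control within members and its alternatives, and the fit on control libraries alone, were not run because controls held 1 member. Library-size scaling, TMMwsp, the share among nuclei without other cells' markers, the narrower letters of the NF-κB consensus and the Flt1-positive comparison were added after the data were seen. In knockouts 2 and 3, 1 UMI of the members stood for 28.3 and 31.7 CPM, which limits genes of few UMIs.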

Other observations

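Interferon-regulated genes outside the gene lists also stood high in the Vcam1-positive nuclei. Parp14, Gbp7, Nlrc5, Ciita and H2-Q4 were at 3.31 to 4.56 times the mean CPM of all other nuclei of the knockout libraries. Ciita, which switches on antigen-presenting class II genes, was at 84.1, 28.3 and 0 CPM in the members of knockouts 1, 2 and 3 and at 14.2, 9.34 and 7.17 CPM in the other nuclei. It was thus seen mainly in knockout 1. These genes were picked after their values were seen, from the counts that chose the nuclei, and no test was made.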
